A study of Mus musculus with 5 samples.

Results

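The genes of G2 and mitosis described here encode the cyclins, kinases, checkpoint proteins, kinesins and kinetochore proteins that carry a cell from the end of DNA replication through division. A list of 38 such genes was taken, and a gene was kept where the array annotation named a probe set for it, which held for 33 of the 38, out of 8251 genes named in all. Ccnb1, Cdc25b, Bub1b, Cenpf and Hmmr had no probe set under their names and were not analysed here. Where a gene had several probe sets, the one with the highest mean over the 5 arrays stood for it. Of the 33 genes, 31 passed the filter on low signal. Below it were Cenpe, a kinetochore motor, whose signals lay between 5.34 and 11.8 over the 5 arrays, and the kinase gene Melk, with signals between 4.24 and 8.56.

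RNA came from CD44lo CD8 T cells of lymph nodes of OT-1 mice, C57BL/6 animals aged 6 to 8 weeks whose T cells carry 1 transgenic receptor for an ovalbumin peptide. The groups were cells stimulated for 72 h with antigen, B7-1 and murine IL-21 (1 array), cells given the same for 48 h (2 arrays), and cells given antigen and B7-1 alone for 48 h (2 arrays). In every culture the antigen (peptide bound to H-2Kb) and B7-1, which gives costimulation through CD28, were coated on latex microspheres, and human IL-2 was present. The labels call each array a biological replicate without saying whether mice or cultures were separate or pooled, so the p-values below reflect array-to-array spread, which may be technical. Cells stimulated for 72 h without IL-21 were not analysed here, so times could be compared only with IL-21 present.

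A T cell that has met antigen enters a run of fast divisions, and transcripts of mitotic genes accumulate in G2 of each cycle and are shut off as the cell returns to G1. CDK1 bound to cyclins A and B starts mitosis, Aurora and Polo-like kinases build and correct the spindle, the spindle checkpoint holds the cell until every chromosome is attached, and the anaphase-promoting complex then destroys cyclin B so that the cell can divide. Transcription of many of these genes is known to be governed by protein complexes that contain the MuvB core with B-MYB (encoded by Mybl2) or FOXM1, which act through a short element near the transcription start, the cell cycle genes homology region (CHR), and by NF-Y, which binds CCAAT boxes upstream of it. In bulk RNA of this kind, fewer cells in G2 and less of a transcript per cell cannot be told apart.

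Many promoters of these genes held the letters of both elements, which the choice of genes did not use. RefSeq promoter windows (GRCm38.p6, 250 bases before to 50 after the transcription start) were at hand for 27 of the 33 genes. The letters TTTGAA, the canonical form of the CHR, were searched on both strands. They began between 60 bases before and 20 after the start in 14 of the 27 genes (51.9%), against 5 of 51 genes of DNA replication (9.8%) and 5.15% of the 27025 genes of the table. Anywhere in the window they were found in 18 of 27 genes (66.7%), against 17.6% of the replication genes and 20.2% of all genes. CCAAT, also searched on both strands, was found at least 2 times in 15 of 27 genes (55.6%), against 35.3% of replication genes and 13.3% of all genes. All 14 genes with TTTGAA near the start also held CCAAT, a pair found in 2.19% of all genes. Of the 26 matches of TTTGAA and 49 of CCAAT in these windows, 0 overlapped one another between the motifs. A match is a description of letters and does not show that a factor binds there.

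The windows of 6 genes are printed 5′ to 3′ on the strand of the gene, with matches of either motif in capitals (TTTGAA or TTCAAA for the CHR, CCAAT or ATTGG for the NF-Y box). Aurka (chr2:172370521-172370820 on the minus strand) and Ube2c (chr2:164769679-164769978 on the plus strand) are shown because they had the largest differences with IL-21. Cdk1 (chr10:69352863-69353162 on the minus strand) and Ccnb2 (chr9:70421505-70421804 on the minus strand) encode the mitotic kinase and one of its cyclins. Top2a (chr11:99024140-99024439 on the minus strand) had 6 CCAAT matches, as Ube2c did, and Bub1 (chr2:127831810-127832109 on the minus strand) had no TTTGAA in its window.
Aurka: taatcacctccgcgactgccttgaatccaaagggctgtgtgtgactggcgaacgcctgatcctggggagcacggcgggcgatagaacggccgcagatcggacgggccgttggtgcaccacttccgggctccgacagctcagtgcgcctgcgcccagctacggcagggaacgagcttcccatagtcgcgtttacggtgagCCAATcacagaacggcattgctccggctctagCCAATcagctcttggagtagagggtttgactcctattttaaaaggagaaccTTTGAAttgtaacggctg
Ube2c: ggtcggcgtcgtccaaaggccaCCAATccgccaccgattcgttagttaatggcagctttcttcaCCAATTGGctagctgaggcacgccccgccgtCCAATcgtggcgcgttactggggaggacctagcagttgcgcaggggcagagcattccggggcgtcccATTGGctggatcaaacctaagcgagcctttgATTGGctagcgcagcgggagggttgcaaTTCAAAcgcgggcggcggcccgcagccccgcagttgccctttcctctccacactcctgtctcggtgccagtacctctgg
Cdk1: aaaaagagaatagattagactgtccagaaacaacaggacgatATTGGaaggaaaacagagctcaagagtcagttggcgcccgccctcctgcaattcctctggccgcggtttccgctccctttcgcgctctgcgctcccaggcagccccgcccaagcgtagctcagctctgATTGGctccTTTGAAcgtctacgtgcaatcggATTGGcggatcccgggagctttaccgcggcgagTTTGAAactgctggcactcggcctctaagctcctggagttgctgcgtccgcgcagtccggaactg
Ccnb2: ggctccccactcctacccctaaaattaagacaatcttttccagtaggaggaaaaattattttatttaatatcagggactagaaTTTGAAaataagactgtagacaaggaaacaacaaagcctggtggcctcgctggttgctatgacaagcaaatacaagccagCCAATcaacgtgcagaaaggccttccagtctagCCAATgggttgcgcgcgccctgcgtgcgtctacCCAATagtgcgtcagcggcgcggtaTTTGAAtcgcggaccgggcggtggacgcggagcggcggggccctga
Top2a: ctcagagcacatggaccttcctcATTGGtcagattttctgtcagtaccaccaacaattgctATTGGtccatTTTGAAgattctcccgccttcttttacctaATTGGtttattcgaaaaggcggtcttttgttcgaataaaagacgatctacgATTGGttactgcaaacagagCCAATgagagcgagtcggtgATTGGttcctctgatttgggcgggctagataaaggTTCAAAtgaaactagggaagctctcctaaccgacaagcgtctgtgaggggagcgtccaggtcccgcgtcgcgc
Bub1: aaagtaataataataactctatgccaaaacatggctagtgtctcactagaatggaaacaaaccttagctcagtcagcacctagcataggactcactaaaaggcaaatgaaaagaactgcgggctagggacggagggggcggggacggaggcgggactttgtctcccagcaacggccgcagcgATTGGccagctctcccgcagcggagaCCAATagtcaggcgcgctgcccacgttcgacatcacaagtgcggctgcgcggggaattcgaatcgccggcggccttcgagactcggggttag

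Counted from the start, with -1 the base before it, TTTGAA began at -15 in Cdk1, at 5 in Ccnb2, and on the opposite strand at -23 in Top2a and -29 in Ube2c, downstream of CCAAT boxes at -48, -21, -58 and -57 in the same order. A further match lay farther upstream, before one or more CCAAT boxes, in Cdk1 (-71), Ccnb2 (-167) and Top2a (-179). In 2 other genes with a match near the start, Cdc20 (-18) and Bub3 (-43), a CCAAT box lay downstream of it (-8 and -32). Aurka held it at 33, after CCAAT boxes at -51 and -19. In Ube2c the CCAAT matches at -186 and -183 lie on opposite strands and share bases.

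**Figure D1:**
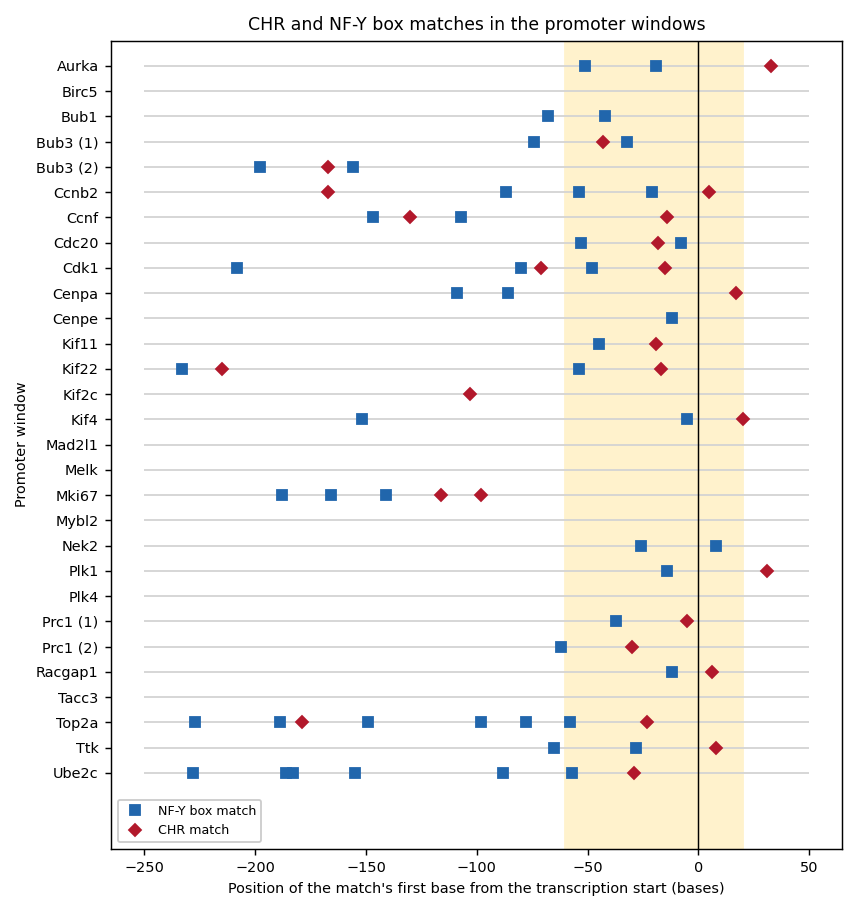
Positions of CHR matches (diamonds) and NF-Y box matches (squares) in the promoter windows of 27 G2 and mitosis genes; the horizontal axis gives the first base of each match in bases from the transcription start, each grey line is 1 window (2 for Bub3 and Prc1), and the shaded band runs from 60 bases before to 20 after the start. Of the 27 genes, 14 have a CHR match inside the band.

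Before scaling, the trimmed mean signal was 65.9 on the 72 h array, 105 and 106 at 48 h with IL-21, and 75.4 and 65.3 without it. Signals below are therefore quantile-normalised, and a log2 difference is one relative to most of the 7453 probe sets tested. All 10 CD8 T cell markers named on the array passed the filter, with a summed signal of 9142 at 72 h, 6337 and 7011 at 48 h with IL-21, and 6131 and 6403 without. Sums for markers of other cell types, which are not measures of cell content, lay over the 5 arrays between 90.0 and 115 for 6 B cell markers (4 passed the filter), 252 and 332 for 11 myeloid and dendritic cell markers (7 passed), 18.5 and 41.5 for 3 CD4 and regulatory T cell markers (1 passed), 2.28 and 11.3 for 2 NK cell markers (0 passed), and 229 and 338 for 6 erythroid, platelet and stromal markers (5 passed). These sums, except that of the B cell markers, were highest at 72 h. The part of other cell types in the results was not tested. With 5 arrays, their number limits the precision.

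The question at 48 h was what IL-21 adds to antigen and B7-1. The G2 and mitosis genes had small differences of either sign. Aurka and Ube2c had the largest differences and higher signals on both IL-21 arrays, Ccnb2 and Cdk1 were slightly higher and Ccna2 lower, and the 4 measured spindle checkpoint genes all lay slightly lower, in each case short of the threshold and, apart from Aurka and Ube2c, with a sign that turned under another scaling. With IL-21, 18 of the 31 genes were higher and 13 lower, and their median log2 difference was 0.07, against -0.01 over all probe sets tested, of which 48.8% were higher. In limma 0 of the 31 had an adjusted p under 0.05, as had 0 (0%) of the 7453 probe sets, and the smallest adjusted p of the 31 was 0.744, for Aurka. At an unadjusted p under 0.05, limma gave 2 genes higher and 1 lower, where 2.56% of all probe sets were higher and 1.84% lower at that level. The signals of the groups did not overlap for 9 genes that were higher and 5 that were lower, against 15.9% and 17.9% of all probe sets. An exact permutation test of 2 arrays against 2 cannot go below p = 0.333.

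The size and sign of this median depended on how arrays were scaled. The median of the 31 genes was 0.11 with arrays centred on their medians, 0.64 in the unscaled signals and -0.34 after scaling on hybridisation controls, and it lay 0.08 above the median of all probe sets in the quantile-normalised and 0.08 above it in the unscaled values. Without the second array with IL-21 it lay -0.005 from that median, just below it. By gene, 23 of the 31 were higher with IL-21 after median centring, all 31 in the unscaled signals, and 3 (Aurka, Birc5 and Ube2c) after scaling on controls, so those 3 were higher under all 4 scalings. In that order the median over all probe sets was 0.04, 0.57 and -0.42. Within replicate number 1 the median of the 31 genes was -0.02, with 14 of 31 higher, and within number 2 it was 0.13, with 22 higher. Both numbers had a higher value with IL-21 for 12 genes and a lower one for 7, against 27.5% and 30.1% of all probe sets. The unsigned difference between the 2 arrays of a group had a median over the genes of 0.20 with IL-21 and 0.13 without it. The 95% interval of the log2 difference lay within 2-fold either way for 28 of 31 genes, all but Aurka, Birc5 and Ube2c. It did for 69.5% of all probe sets, which were not matched to the genes for signal.

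**Figure D2:**
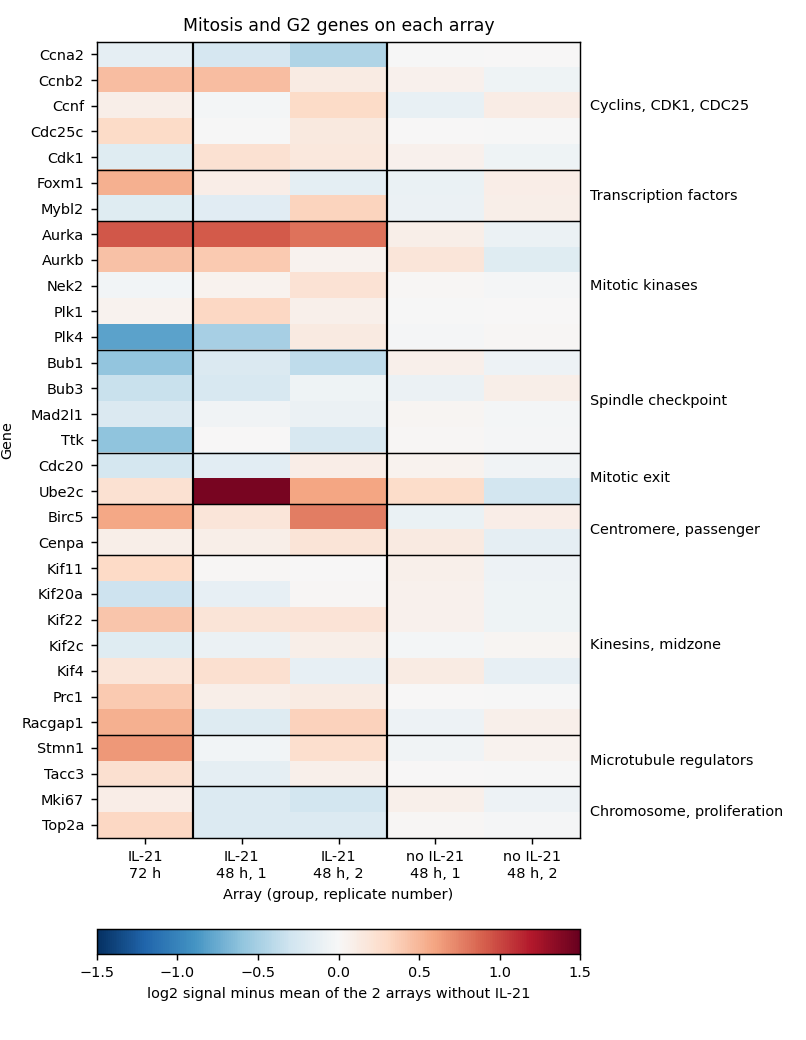
Heat map of the 31 G2 and mitosis genes (rows, by role) on the 5 arrays (columns); colour gives the log2 quantile-normalised signal minus the mean of the 2 arrays without IL-21, red for higher and blue for lower. Aurka and Ube2c are red in both columns of IL-21 at 48 h, and Plk4, Bub1 and Ttk are the bluest at 72 h.

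Among the mitotic kinases, 4 of 5 were higher with IL-21 and 1 lower, and 0 passed; of the 4, Aurka alone stayed higher after scaling on controls. Aurka, the kinase of centrosomes and spindle poles, had signals of 203 and 189 with IL-21, against 114 and 100.1 without it (log2 difference 0.87, SE 0.17, 95% interval 0.46 to 1.27, adjusted p = 0.744 in limma). Both IL-21 arrays lay above both others, and the difference was 0.83 within replicate number 1 and 0.91 within number 2. Aurkb, the kinase of the chromosomal passenger complex that corrects faulty attachments, had 295 and 234 with IL-21, against 255 and 198 without it (log2 difference 0.22, SE 0.20, 95% interval -0.26 to 0.71), and its groups overlapped. Plk1, which drives entry into mitosis and centrosome maturation, had 616 and 526 with IL-21, against 494 and 501 without it (log2 difference 0.19, SE 0.14, 95% interval -0.14 to 0.53), and its 2 further probe sets differed by 0.43 and 0.21, in the same direction. Plk4, the kinase that starts centriole duplication, had 269 and 418 with IL-21, against 376 and 388 without it, with the 2 IL-21 arrays on either side of the others. Nek2, which splits centrosomes, differed by 0.14.

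Of 5 genes of cyclins, CDK1 and its activating phosphatase, 4 were higher and 1 lower with IL-21, and 0 passed; after scaling on controls all 5 were lower, and in the unscaled signals all 5 higher. Ccnb2, a mitotic B-type cyclin, had signals of 1009 and 796 with IL-21, against 766 and 700.5 without it (log2 difference 0.29, SE 0.15, 95% interval -0.08 to 0.65). Cdk1, the kinase it activates, had 655 and 621 with IL-21, against 583 and 533 without it (log2 difference 0.19, SE 0.12, 95% interval -0.11 to 0.50). For both genes the groups did not overlap. Ccna2, the cyclin of S phase and G2, went the other way, with 502 and 439 with IL-21, against 599.7 and 601 without it (log2 difference -0.35, SE 0.13, 95% interval -0.67 to -0.03), and both IL-21 arrays lay below both others. This gene had an unadjusted p of 0.0352 and an adjusted p of 0.966 in limma. Ccnf, a cyclin-like F-box protein, and Cdc25c, the phosphatase that switches CDK1 on, differed by 0.13 and 0.07, less than their SE of 0.18 and 0.18.

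The genes that end mitosis and mark centromeres held the other large differences. Ube2c, the ubiquitin-conjugating enzyme of the anaphase-promoting complex, had signals of 89.3 and 49.6 with IL-21, against 39.7 and 26.4 without it (log2 difference 1.01, SE 0.36, 95% interval 0.13 to 1.88, adjusted p = 0.966 in limma). The groups did not overlap, but the 2 IL-21 arrays differed from each other by -0.83 and the 2 without it by -0.56 on the log2 scale, the widest replicate gaps of the 31 genes. The log2 difference of Ube2c was 0.59 without the first and 1.39 without the second IL-21 array. Cdc20, the activator of the same complex, had 875 and 1045 with IL-21, against 1008 and 940.1 without it (log2 difference -0.03, SE 0.13, 95% interval -0.34 to 0.29). Birc5, which encodes survivin of the chromosomal passenger complex, had 299 and 449.5 with IL-21, against 247 and 283 without it (log2 difference 0.47, SE 0.22, 95% interval -0.07 to 1.01), without overlap. Cenpa, the histone variant of centromeres, differed by 0.14.

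All 4 measured spindle checkpoint genes were lower with IL-21, with log2 differences between -0.30 and -0.07, and 0 passed. They were lower within both replicate numbers, as were 30.1% of all probe sets, though Ttk by only -0.01 within number 1. In the unscaled signals all 4 were higher. Bub1, the kinase that recruits checkpoint proteins to kinetochores, had signals of 114 and 101.3 with IL-21, against 139 and 126 without it (log2 difference -0.30, SE 0.18, 95% interval -0.74 to 0.14), and a second probe set that passed the filter differed by -0.16. Ttk, the kinase that starts checkpoint signalling, had 83.3 and 70.1 with IL-21, against 84.0 and 81.7 without it, and its groups overlapped. Mad2l1, which restrains the anaphase-promoting complex, and Bub3, a partner of BUB1, differed by -0.07 and -0.15. Mki67, which coats mitotic chromosomes and is the usual mark of cycling cells, had 278 and 265 with IL-21, against 337 and 304 without it (log2 difference -0.24, SE 0.14, 95% interval -0.59 to 0.11), and Top2a, the topoisomerase that untangles sister chromatids, had 315 and 315 with IL-21, against 366 and 358 without it (log2 difference -0.20, SE 0.13, 95% interval -0.52 to 0.12). Both were lower on each IL-21 array than on each array without it. A second, much dimmer probe set of Mki67 had the opposite sign (0.46). In the unscaled signals the differences of Bub1, Ttk, Mki67, Top2a and Ccna2 were all positive, between 0.23 and 0.44, below the 0.57 by which the median of all probe sets was higher there.

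Kinesins and midzone proteins, which slide and bundle spindle microtubules, differed little. Of 7 genes 5 were higher and 2 lower with IL-21, all between -0.05 and 0.20. The highest was Kif22, a chromosome-arm kinesin, with signals of 518 and 525 with IL-21, against 475 and 434 without it. Prc1, the microtubule bundler of the midzone, had 204 and 209 with IL-21, against 192 and 191 without it. Both of these kept their groups apart, whereas Racgap1, the GTPase activator of the midzone complex, had 94.3 and 137 with IL-21, against 103 and 114 without it, with 1 IL-21 array below both others and 1 above. Foxm1, the transcription factor, had 275 and 231 with IL-21, against 241 and 275 without it (log2 difference -0.03, and 0.04 in a second probe set), and the other factor of the list, Mybl2, differed by 0.08. Stmn1, the microtubule destabiliser stathmin, had 795 and 976 with IL-21, against 794 and 848 without it (log2 difference 0.10), and Tacc3, a spindle microtubule protein, differed by -0.03. Kif22 and Ube2c were read by probe sets whose names end in _r_at, Kif20a by one in _f_at, Cdc25c by one in _s_at, and Plk1 and Foxm1 by ones in _g_at, endings that Affymetrix gives where probes followed relaxed rules or may match more than 1 transcript.

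**Figure D3:**
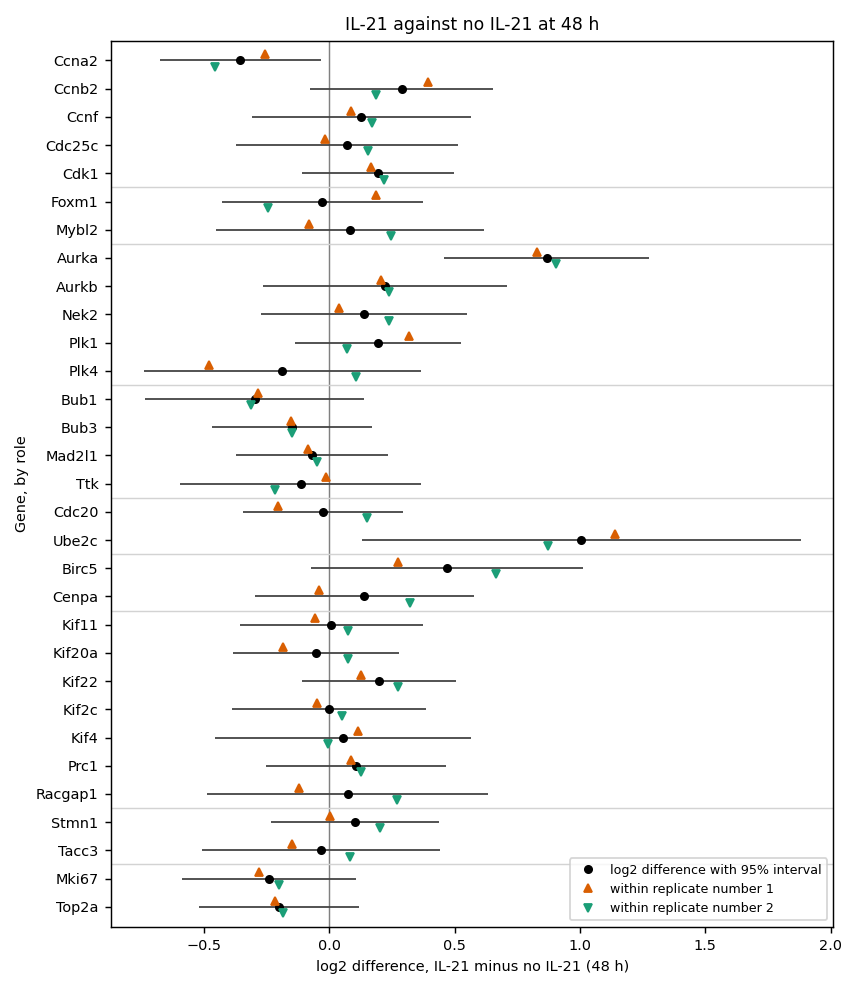
Log2 difference between arrays with and without IL-21 at 48 h for the 31 genes, grouped by role. Black points with bars are the limma estimate over 2 against 2 arrays and its 95% interval, and triangles are the differences within replicate number 1 (up) and 2 (down). The intervals of Aurka and Ube2c lie above 0 and that of Ccna2 below it, before adjustment over all probe sets.

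The question over time was whether the genes differ at 72 h from 48 h when IL-21 is present. Only 1 array was available at 72 h, so its values could not be checked against a replicate, and the test takes its variance from the 48 h groups. After quantile normalisation all 31 G2 and mitosis genes lay within 2-fold of their mean 48 h signals. In the unscaled signals Cdk1, Plk4, Ttk and Ube2c were among those past 2-fold (log2 differences -1.08, -1.36, -1.04 and -1.27). Ube2c was past it also with the replicate block (-1.13) and without the second 48 h array with IL-21 (-1.17). Stmn1, Foxm1, Top2a and Racgap1 were higher at 72 h and Ube2c, Plk4, Ttk and Cdk1 lower. At 72 h 16 of the 31 genes were higher and 15 lower, and their median log2 difference was 0.07, against -0.01 over all probe sets, of which 50.7% were lower. In limma 0 of the 31 passed, where 3.96% of all probe sets were called higher and 7.08% lower, and the smallest adjusted p of the 31 was 0.0977, for Stmn1. At an unadjusted p under 0.05, 3 genes were higher and 1 lower, where 11.6% and 15.6% of all probe sets were. A difference of 2-fold or more was seen in 0 of the 31 and in 15.6% of all probe sets. All 31 genes also passed a filter at the 60th percentile of mean signal, so these shares are not matched for signal. By scaling, 25 of the 31 were lower after median centring, all 31 in the unscaled signals and 8 after scaling on controls. In that order the median over all probe sets was -0.17, -0.58 and 0.30. The 95% interval lay within 2-fold either way for 26 of the 31, all but Plk4, Ttk, Racgap1, Ube2c and Foxm1. It did for 33% of all probe sets, again not matched for signal.

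After quantile normalisation the 4 spindle checkpoint genes and both genes of mitotic exit lay lower at 72 h. After scaling on controls 8 of the 31 genes were lower. Among them were Ttk (-0.14), Bub1, Ube2c (-0.38) and Cdc20 (-0.014), but not Bub3 or Mad2l1. Ttk had signals of 54.2 at 72 h, against 83.3 and 70.1 at 48 h (log2 difference -0.48, SE 0.24, 95% interval -1.07 to 0.10), and Bub1 had 87.3 at 72 h, against 114 and 101.3 at 48 h (log2 difference -0.30, SE 0.22, 95% interval -0.83 to 0.24). Both, like Bub3 (-0.18) and Mad2l1 (-0.15), had their lowest signal of all 5 arrays at 72 h after quantile normalisation, which does not hold for all 4 after scaling on controls, where the log2 difference of Bub1 was -0.013. A second probe set of Bub3, below the filter, had the opposite sign (1.68). Ube2c had 38.1 at 72 h, against 89.3 and 49.6 at 48 h (log2 difference -0.78, SE 0.44, 95% interval -1.85 to 0.29), which is near the 39.7 and 26.4 of the 48 h arrays without IL-21. Cdc20 had 809 at 72 h, against 875 and 1045 at 48 h (log2 difference -0.24). In all, 11 of 31 genes had a lower signal at 72 h than on every one of the 48 h arrays, against 33.8% of all probe sets, and 14 were lower than on both IL-21 arrays, against 41.2%. The count of 11 became 13 in the unscaled signals, 14 after median centring and 3 after scaling on controls. The share of all probe sets was not counted there, but their median log2 difference was -0.58, -0.17 and 0.30 in that order.

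Among kinases and cyclins 0 passed at 72 h. Plk4 had 219 at 72 h, against 269 and 418 at 48 h (log2 difference -0.61, SE 0.28, 95% interval -1.29 to 0.07), and the 2 arrays at 48 h were wide apart. Plk1 had 514 at 72 h, against 616 and 526 at 48 h (log2 difference -0.15). Cdk1 had 491 at 72 h, against 655 and 621 at 48 h (log2 difference -0.38, SE 0.15, 95% interval -0.75 to -0.01, adjusted p = 0.179 in limma), below all 4 arrays at 48 h. Ccnb2 had 1009 at 72 h, against 1009 and 796 at 48 h (log2 difference 0.17, SE 0.18), and Ccna2 had 547 at 72 h, against 502 and 439 at 48 h (0.22), but both were lower at 72 h in the unscaled signals (-0.52 and -0.47) and after median centring. The 72 h signal of Ccnb2 equals that of the first 48 h array, since quantile normalisation gives the same value to the same rank. Aurka had 205 at 72 h, against 203 and 189 at 48 h (log2 difference 0.07). These signals lay above the 114 and 100.1 of the arrays without IL-21, which were both taken at 48 h. For 72 h there was no array without IL-21 to compare with. Aurkb had 306 at 72 h, against 295 and 234 at 48 h (0.22). Birc5 had 395 at 72 h, against 299 and 449.5 at 48 h, between its 48 h values.

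Signals were higher at 72 h for Stmn1, Top2a, Mki67 and Foxm1, which all turned lower in the unscaled signals. Stmn1 had 1284 at 72 h, against 795 and 976 at 48 h (log2 difference 0.54, SE 0.17, 95% interval 0.13 to 0.95, adjusted p = 0.0977 in limma), and its second probe set, which was below the filter, had the opposite sign (-0.10). Top2a had 449.5 at 72 h, against 315 and 315 at 48 h (log2 difference 0.51, SE 0.16, 95% interval 0.12 to 0.90, adjusted p = 0.0991), and Mki67 had 345 at 72 h, against 278 and 265 at 48 h (log2 difference 0.34, SE 0.17, 95% interval -0.08 to 0.77). All 3 lay above every array at 48 h, Mki67 by the least, since its highest 48 h signal was 337 without IL-21. Foxm1 had 374 at 72 h, against 275 and 231 at 48 h (log2 difference 0.57, SE 0.20, 95% interval 0.08 to 1.06), and its second probe set differed by 0.13. Mybl2 had the opposite sign (-0.26), and its second probe set, a dim one, differed by 0.37. Among 7 kinesin and midzone genes, 5 were higher at 72 h, led by Racgap1 with 157 at 72 h, against 94.3 and 137 at 48 h and Prc1 with 253 at 72 h, against 204 and 209 at 48 h, and the others were lower, with log2 differences of -0.26 for Kif20a and -0.18 for Kif2c. Kif22 had 607 at 72 h, against 518 and 525 at 48 h.

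**Figure D4:**
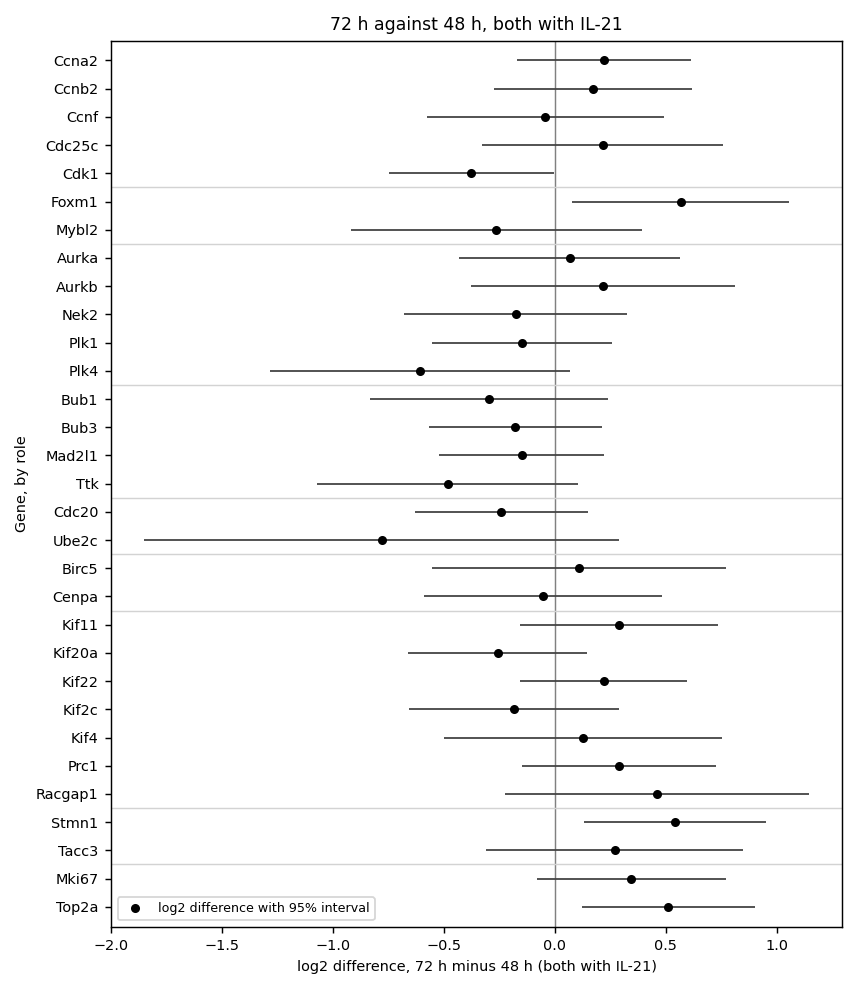
Log2 difference between the 72 h array and the 2 arrays at 48 h, all with IL-21, for the 31 genes grouped by role; points are limma estimates and bars their 95% intervals. Foxm1, Stmn1 and Top2a lie to the right of 0 and Cdk1 to the left with intervals that do not reach it, and 0 of the 31 passed after adjustment over 7453 probe sets.

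Genes of DNA replication mostly had lower signals on the 72 h array. Of 49 measured, 43 were lower and 6 higher than at 48 h with IL-21, with a median log2 difference of -0.52, and limma called 9 lower, where 7.08% of all probe sets were, and 0 higher. The calls numbered 21 with the replicate block, where 1843 of the 7453 probe sets were called in all, and 0 without a variance trend, where 0 were. Mcm2, a subunit of the replicative helicase, had signals of 226 at 72 h, against 492 and 492 at 48 h (log2 difference -1.12, SE 0.16, adjusted p = 0.015 in limma). Next by p-value came Ung, which removes uracil from DNA, with a log2 difference of -1.12, Mcm10, which activates the helicase, with -1.49, and Orc6 of the origin recognition complex, with -0.76. The replication median at 72 h was -1.17 with 37 genes called in the unscaled signals, -0.76 with 8 called after median centring, and -0.26 with 0 called after scaling on controls. In the same order 2128, 674 and 906 of the 7453 probe sets were called in all. The median of the 31 G2 and mitosis genes lay 0.59 above that of the replication genes at 72 h, and 0.01 above it for IL-21 at 48 h. That distance at 72 h was 0.49 in the unscaled signals, and a shift that moves all genes of an array alike (median centring or scaling on controls) leaves such a distance as it is. The median of the mitosis genes alone was -0.68, -0.27 and 0.23 in the unscaled, median-centred and control-scaled values. Array by array, and relative to the mean of the arrays without IL-21, the mitosis median minus the replication median was 0.52 at 72 h, -0.02 and 0.03 at 48 h with IL-21, and -0.00 and 0.00 without it. This rests on 1 array at 72 h, and the difference between the lists was not tested. Without either of the 48 h arrays with IL-21 limma called 0 of all probe sets (smallest adjusted p 0.0806 and 0.0622), while the replication median was -0.51 and -0.53. Without the first or second array lacking IL-21, 1 of the 49 was called in each fit.

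Other genes of mitosis, 47 measured of 95 listed, were described in the same way. They had a median of 0.00 for IL-21 at 48 h, with 24 higher and 23 lower and 0 called, and of -0.11 at 72 h, with 19 higher and 28 lower. At 72 h limma called 2 of them higher and 0 lower. Of all probe sets 3.96% were called higher, so the share of higher calls is near the background, and 7.08% lower. The calls were 0 higher and 16 lower in the unscaled signals, 1 and 0 after median centring, 2 and 0 after scaling on controls, 3 and 4 with the replicate block, and 0 without a variance trend. In the same order 2128, 674, 906, 1843 and 0 of the 7453 probe sets were called in all. Nusap1, a spindle microtubule protein, had signals of 546 at 72 h, against 262 and 239 at 48 h (log2 difference 1.12, adjusted p = 0.0242). Cdkn3, a phosphatase that acts on CDKs, had 107 at 72 h, against 27.2 and 39.6 at 48 h (1.65, adjusted p = 0.0274). Both calls, like all others at 72 h, were lost without either 48 h array with IL-21, and 1 of the 47 genes was called without each array that lacked IL-21. The 72 h median of these genes was 0.17 after scaling on controls, the opposite sign. Rad21, a cohesin subunit, and Gtse1, a microtubule protein of G2, differed by 0.57 and -1.08 and did not pass. At 48 h the smallest p among these genes belonged to Cdkn3 (-0.68) and Kif23, a midzone kinesin (0.54). For the 18 measured genes of G1 control, the list median for IL-21 at 48 h was 0.03 with 0 called. On the 72 h array 10 of the 18 had a smaller signal and 8 a larger one, and the list median was -0.19. Limma called 2 of the 18 lower at 72 h, where 7.08% of all probe sets were, and 0 higher, where 3.96% were. Those called were Cdc25a (log2 difference -1.08), a CDK phosphatase, and Tfdp1 (-0.86), the partner of E2F factors. After scaling on controls 0 G1 genes were called lower and 2 higher, where 906 of the 7453 probe sets were called, with a median of 0.12.

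**Figure D5:**
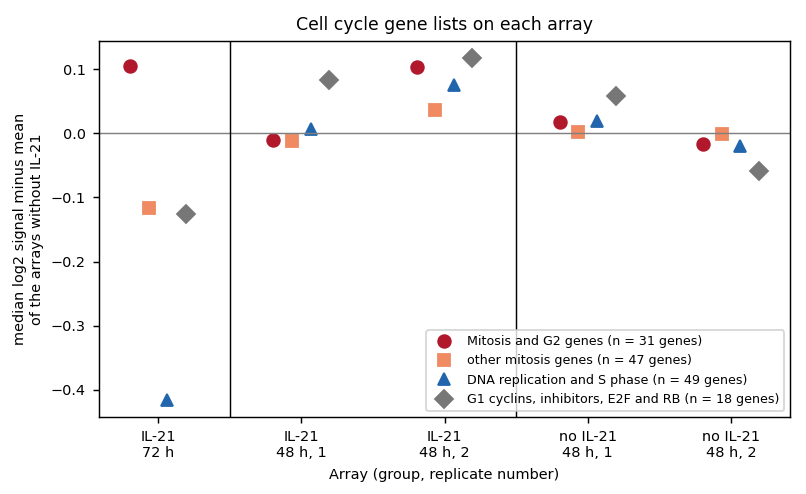
Median log2 signal of 4 cell cycle gene lists on each of the 5 arrays, relative to the mean of the 2 arrays without IL-21, in quantile-normalised values; each symbol is 1 list on 1 array. The lists lie between -0.06 and 0.12 at 48 h, and at 72 h the DNA replication list lies at -0.42 and the G2 and mitosis genes at 0.10.

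Within the G2 and mitosis genes, the differences were set beside the promoter letters. The 14 genes with TTTGAA near the start had a median log2 difference with IL-21 at 48 h of 0.09, between -0.20 (Top2a) and 1.01 (Ube2c), with 10 higher. The 11 genes that passed the filter and had a window without it had -0.00, between -0.30 (Bub1) and 0.87 (Aurka, whose match lies farther downstream), with 5 higher. At 72 h the medians were 0.04 and -0.15, and both sets held genes of either sign. The ranges of the 2 sets overlapped in both comparisons.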

How the data were processed

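The authors deposited MAS5 signals, as named in the submitters' processing notes: linear intensities of probe sets, 1 Affymetrix MG-U74Av2 array for each sample. Version, scaling target and detection calls were not given in the sources read. Of 12488 probe sets, 66 controls were left out. Symbols came from the platform annotation, updated through Entrez identifiers (10817 of 10833 singly named probe sets matched to GRCm38.p6), and 396 with several names were given none. Because overall signal differed between arrays, values were quantile-normalised, 1.53 (the 10th percentile) was added, and log2 was taken, which understates differences of dim probe sets. Probe sets with a mean above the 40th percentile were kept (7453). Group means of 3 groups were fitted to all 5 arrays with limma 3.58.1 in R 4.3.3 (2 residual degrees of freedom, variance trend, two-sided, Benjamini-Hochberg over 7453 probe sets, threshold 0.05). The fit was tested on simulated data.

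The genes, lists and tests were chosen with earlier results of these data known. Values were given per array for the 8 genes of smallest p at 48 h, the 10 at 72 h and those of 11 fixed genes that passed the filter. The fixed genes were Mki67, Top2a, Ccna2, Ccnb1, Cdk1, Plk1, Aurka, Aurkb, Bub1, Cdc20 and Foxm1, of which Ccnb1 had no probe set under its name. The other lists contributed up to 4 genes each per comparison. Alternatives changed the scaling, offset, filter, variance trend, probe sets per gene, replicate block and arrays. Promoter windows came from RefSeq (GRCm38.p6).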

Additional observations from a re-analysis of the deposited data

How the results depend on the processing

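Limma called 0 of the G2 and mitosis genes in both comparisons under each alternative except the unscaled signals and the replicate block. In the unscaled signals 8 of 31 genes were called at 48 h, all higher, and 13 at 72 h, all lower, where 696 and 2128 probe sets were called in all and the median probe set moved by 0.57 and -0.58. With the replicate number as a block, 3 genes were called at 72 h (Top2a and Stmn1 higher, Ube2c lower) and 0 at 48 h, where 1843 and 3 probe sets were called in all, and the median of the genes was -0.0042 at 72 h. No label ties the numbers to a day or a mouse, and the deviations of the arrays numbered 1 from their group means correlated between the groups with r = 0.36 over probe sets, a hint from 2 pairs and not the design. The median of the genes at 48 h was 0.64 in the unscaled signals and -0.34 after scaling on controls, and lay between -0.011 and 0.097 when each 48 h array was left out in turn. At 72 h it was -0.68, -0.27 with median centring and 0.23 after scaling on controls, and lay between -0.033 and 0.066 with 1 array left out. Relative to all probe sets it lay 0.077 above at 72 h after quantile normalisation, and -0.094, -0.094 and -0.074 in the unscaled, centred and control-scaled values, so its side is not settled. Within replicate number 1 at 48 h the median was 0.45 unscaled, -0.10 centred and -0.68 on controls, and within number 2 it was 0.81, 0.30 and -0.060. Single genes were followed by setting only where values per array are given above. Other genes of the list turned too: at 48 h 18 of the 31 were higher in the main analysis and 3 after scaling on controls. Log2 differences of the genes followed changed sign as listed next, none of them past the threshold in the main analysis. At 48 h these were, in the unscaled signals, Mki67 0.33, Top2a 0.38, Ccna2 0.23, Cdc20 0.55, Plk4 0.40, Bub1 0.26, Ttk 0.44, Foxm1 0.53; with median centring, Cdc20 0.018; after scaling on controls, Ccnb2 -0.094, Cdk1 -0.23, Plk1 -0.24, Aurkb -0.23, Kif22 -0.22, Racgap1 -0.32, Prc1 -0.33, Stmn1 -0.31; and as a mean over probe sets, Mki67 0.11, Foxm1 0.00381. At 72 h they were, unscaled, Mki67 -0.40, Top2a -0.20, Ccna2 -0.47, Ccnb2 -0.52, Aurka -0.68, Aurkb -0.51, Birc5 -0.64, Kif22 -0.45, Racgap1 -0.26, Prc1 -0.46, Foxm1 -0.15, Stmn1 -0.14; centred, Ccna2 -0.065, Ccnb2 -0.11, Aurka -0.27, Aurkb -0.10, Birc5 -0.23, Kif22 -0.044, Prc1 -0.048; on controls, Plk1 0.074; and with the replicate block, Aurka -0.00421. With 1 array left out in turn the sign changed for these genes, which ranged at 48 h over Cdc20 -0.16 to 0.097, Plk4 -0.50 to 0.13, Ttk -0.24 to 0.0084, Racgap1 -0.19 to 0.34, Foxm1 -0.15 to 0.091, Stmn1 -0.046 to 0.25, and at 72 h over Birc5 -0.18 to 0.39. Ccnb2 at 72 h ranged from 0.00 to 0.34, without a change of sign. Causes were not tested. The offset, the filter and the variance trend changed no sign among these genes, and leaving out genes read by probe sets with names in _f_at, _r_at, _s_at or _g_at, an alternative chosen after seeing the data, left medians of 0.055 and 0.066. Of all probe sets at 72 h, 823 were called in the main analysis, 0 without a variance trend or without either 48 h array with IL-21, 465 and 435 without the first or second array that lacked IL-21. At 48 h 0 were called in the main analysis and 38 after scaling on controls. Dim signal limits Cenpe and Melk, which fell below the filter, and 1 array limits the 72 h comparison.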
